A study of Arabidopsis thaliana with 6 samples.

Results

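Class III peroxidases are the secreted plant heme peroxidases, and 60 gene IDs of this family were looked up in RNA-seq data from Arabidopsis root tips. The list was drawn up with earlier results of these data known, its members were found by gene ID, and 48 of the 60 had a row in the deposited tables, out of 18734 genes with a row. The groups were Col, which is the Columbia wild type, and ore15-2, a line in the Columbia-0 background with a T-DNA inserted in ORE15, the gene of a PLATZ family transcription factor. Each had 3 libraries of poly(A) RNA from 0.5 cm primary root tips taken 5 days after planting. The line represents a single insertion allele. According to the labels 2 seedlings were used per genotype, although 3 libraries of each are listed. Separate cultures are not mentioned, so the p-values below reflect the spread among these libraries alone, and that spread may be technical.

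Class III peroxidases are exported to the cell wall or vacuole, where they use hydrogen peroxide to oxidise phenolic compounds and, in another reaction cycle, can themselves release reactive oxygen species. In roots they are known for polymerising lignin in the xylem and in the Casparian strip of the endodermis, for stiffening or loosening walls as cells stop or resume growth, and for their abundance in root hairs. The balance of superoxide and hydrogen peroxide that they help set along the root tip is part of the switch from cell division to elongation, and the bHLH factor UPB1 is known to repress several of them there.

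Total counts lay between 17433440 and 20333352 in Col. Among the ore15-2 libraries, replicates 1 and 2 were shallower (6706712 and 6396903 counts) than replicate 3 (16503138). The share of mitochondrial transcripts was 0.183% to 0.250% in Col and 0.328% in ore15-2 replicate 3. It was 2.91% and 3.20% in ore15-2 replicates 1 and 2, which stand apart from the other 4 libraries in this. ORE15 (AT1G31040) had 13, 12 and 8 counts in Col and 0, 0 and 1 in ore15-2, as its label says. The labels name the cells as root meristem stem cells, whereas the tips held RNA of mature cells too. Summed over 5 stem cell niche genes the level was 95.5 to 108 CPM (read counts scaled to a common, TMM-adjusted library size) in Col, with WOX5, the quiescent centre factor, at a mean of 2.22 CPM. By comparison, 7 root hair genes summed to 313 to 381 CPM. In such bulk samples, fewer cells of a type and less RNA per cell cannot be told apart.

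Of the 48 measured peroxidases, 8 were higher in ore15-2 and 3 were lower, and the remaining 37 did not pass the test. The members that rose included 4 peroxidases known from root hair cells, with AT1G34510 at the top (4.20-fold), and the 3 that fell included AtPRX71, the third most abundant member in Col. The test was edgeR's quasi-likelihood test with Benjamini-Hochberg adjustment over all 18726 genes, and the threshold was an adjusted p of 0.05. The share of members called was 22.9%, against 9.90% of all genes tested. For rises alone it was 16.7% against 6.47%, and for falls 6.25% against 3.43%. The CPM values of the genotypes did not overlap in 23 members (47.9%), against 34.5% of all genes. The median log2 fold change was 0.18 over the members and -0.00049 over all genes tested, and 34 members lay above 0 and 14 below. By library the member median relative to Col was 0.04, 0.32 and 0.11 in ore15-2 replicates 1 to 3.

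The number of calls depended on single libraries, among the members as among all genes. Leaving out Col replicate 1, 2 or 3 left 4, 6 or 6 called members (8.33%, 12.5% and 12.5%), against 3.98%, 3.39% and 4.38% of all genes. Leaving out ore15-2 replicate 1, 2 or 3 gave 6, 13 or 21 (12.5%, 27.1% and 43.8%), against 4.88%, 11.3% and 35.3% of all genes. Without both ore15-2 replicates 1 and 2, an alternative added after seeing the data, ore15-2 has 1 library, which is assumed to vary like the Col libraries. That fit called 20 members (41.7%) and 16.6% of all genes, and it is no check on replication. AT1G34510, RHS18, AT2G38390 and PA2 passed in each of the 6 fits that left out 1 library.

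**Figure D1:**
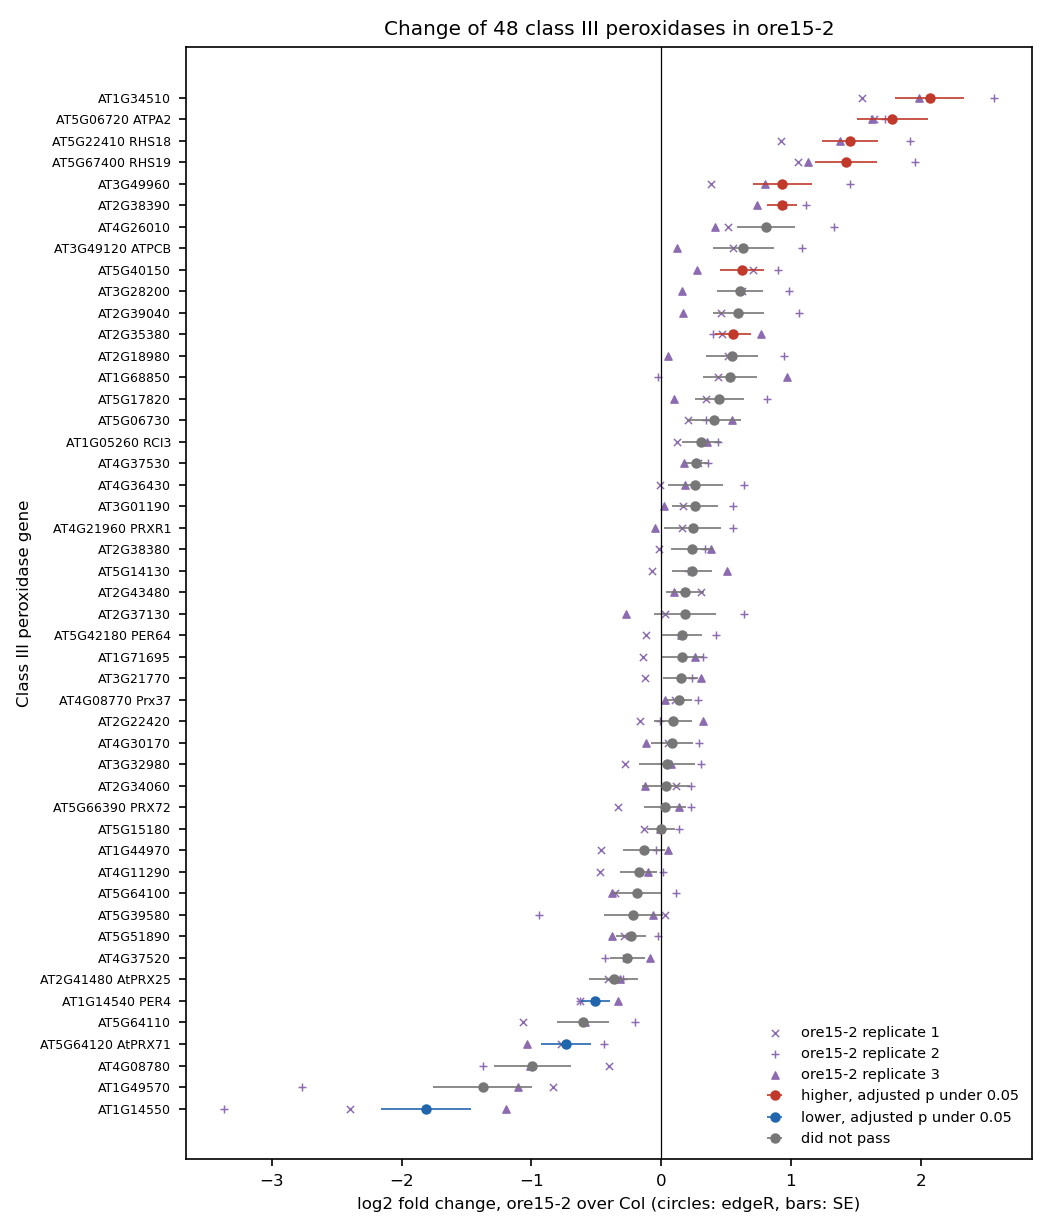
Log2 fold change of ore15-2 over Col for the 48 measured class III peroxidases, with the standard error of the edgeR fit as bars and the change in each ore15-2 library as points. The values run from -1.81 (AT1G14550) to 2.07 (AT1G34510), with 8 members called higher and 3 called lower.

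The levels in wild-type root tips were spread over 3 orders of magnitude. Ranked by the deposited RPKM (read counts scaled by library size and gene length), PRXR1 (AT4G21960) came first with 1009.5, 1020.3 and 1028 RPKM in Col replicates 1 to 3. It was followed by AT3G32980 (mean 732 ± 93.0, SD, n = 3), AtPRX71 (AT5G64120, 675 ± 64.4), AT5G64100 (659 ± 33.6) and AT2G37130 (637 ± 40.7). AT4G30170 (532 ± 7.07), AT3G01190 (500.1 ± 33.4) and RCI3 (AT1G05260, 387 ± 28.1), a peroxidase first described as cold-inducible, came next. PRXCB (AT3G49120, ATPCB in the deposited tables, 331 ± 28.6), known from the apoplastic oxidative burst, and AT5G17820 (329 ± 7.83) closed the first 10. The lowest member was PA2 (AT5G06720, ATPA2 in the deposited tables) at 0.768 ± 0.232 RPKM. PRXR1 stood clear of the next member, but in 33 of the 47 neighbouring pairs of this order the ranges over the Col libraries overlapped, so that most neighbours were not separated beyond their spread.

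These 10 members held 69.0% to 71.5% of the summed peroxidase RPKM in Col and 63.7% to 67.9% in ore15-2. Since the 10 were picked on their Col values, these shares are a description only. AtPRX71 was the 1 call among them (10%, near the 9.90% of all genes), and 10 of the 38 members below them were called (26.3%). PRXR1 had 900.4, 929 and 934 CPM in Col and 1028, 1353 and 893 CPM in ore15-2. AT3G32980 had 600.0, 729.6 and 789 CPM in Col and 578, 869 and 738 CPM in ore15-2. For AT5G64100 the Col values were 589, 633 and 571 CPM and those in ore15-2 467, 648 and 459 CPM. In each of these the genotypes overlapped in CPM, with ore15-2 replicate 2 the highest of its group. AT2G37130 had 583, 596 and 531 CPM in Col and 582, 889 and 471 CPM in ore15-2. AT4G30170 was nearly level in Col (474, 473 and 473 CPM) and spread to 491, 579.9 and 437 CPM in ore15-2. AT3G01190 had 466, 436 and 417 CPM in Col and 493, 644 and 445 CPM in ore15-2. Here too the groups overlapped in CPM and ore15-2 replicate 2 was highest. That library had the lowest TMM factor (0.786), which raises its CPM. The deposited RPKM are not scaled by TMM. On RPKM, AT5G64100 (626 to 693 in Col, 447 to 531 in ore15-2) and AT4G30170 (527 to 540 in Col, 477 to 484 in ore15-2) did not overlap. AT3G32980 was there highest in ore15-2 replicate 3 (744, against 669 in replicate 2). RCI3 had 324, 336 and 376 CPM in Col and 376, 467 and 441 CPM in ore15-2, and the genotypes met at their edge.

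As a share of all counts the family took 0.798%, 0.829% and 0.818% in Col and 0.707%, 0.818% and 0.804% in ore15-2, which overlap. Summed over the 48 members, ore15-2 replicate 2 was highest at 10404 CPM, and the other 5 libraries lay between 7216 and 7655 CPM. Scaled by library size alone, another alternative added after the data were seen, the median log2 fold change of all genes was -0.23 and that of the members -0.06, so that all genes shifted by about as much as the members.

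**Figure D2:**
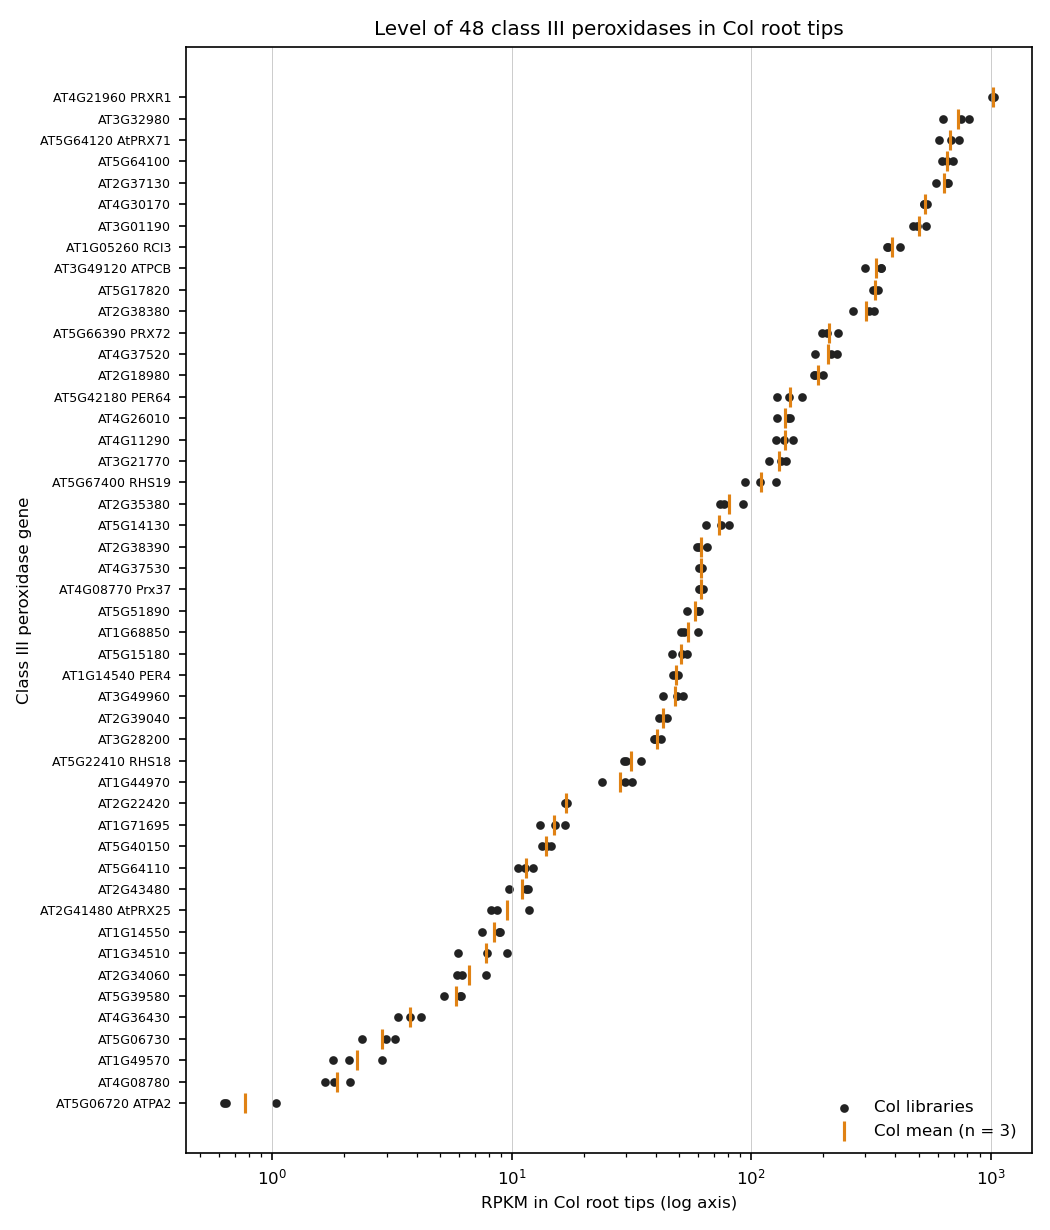
Mean Col RPKM (log axis) of the 48 measured class III peroxidases in rank order, with the value of each Col library as points and the mean as a vertical tick. The mean runs from 1019 RPKM for PRXR1 to 0.768 RPKM for PA2, and the points of most neighbours overlap.

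Root hair peroxidases made up 4 of the 8 rises. Of 8 peroxidases listed for root hair cells 7 had a row. Of these 4 rose (57.1%, against 6.47% of all genes) and none fell, with a median log2 fold change of 0.93 over the list. Like the members, this list was chosen with earlier results of these data known. AT1G34510, transcribed in root hair cells, had 4.98, 6.72 and 8.17 CPM in Col and 19.2, 39.0 and 26.2 CPM in ore15-2. All 3 ore15-2 libraries lay far above the Col range, with replicate 2 the highest. Its mean went from 6.62 ± 1.60 to 28.1 ± 10.01 CPM (SD, n = 3 each), a log2 fold change of 2.07 (SE 0.26, edgeR adjusted p = 0.00165).

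ROOT HAIR SPECIFIC 18 (RHS18, AT5G22410) and ROOT HAIR SPECIFIC 19 (RHS19, AT5G67400) are named for transcription restricted to root hairs. RHS18 had 26.3, 27.4 and 31.5 CPM in Col and 53.8, 107 and 74.0 CPM in ore15-2. It rose 2.74-fold (log2 fold change 1.46, SE 0.21, edgeR adjusted p = 0.00311), again with no overlap and with ore15-2 replicate 2 highest. RHS19 had 83.4, 99.2 and 114 CPM in Col and 204, 381 and 215 CPM in ore15-2. The increase was 2.68-fold (1.42, SE 0.24, edgeR adjusted p = 0.00636), and without Col replicate 1 the adjusted p was 0.0511.

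AT3G49960, the member closest to RHS19 in coding sequence (78.8% identity), had 38.0, 44.3 and 47.2 CPM in Col and 56.1, 118 and 75.0 CPM in ore15-2. It rose 1.91-fold (log2 fold change 0.93, SE 0.23, edgeR adjusted p = 0.034), but with Col replicate 1, 2 or 3 left out it no longer passed (adjusted p = 0.163, 0.134 and 0.0935). Without ore15-2 replicate 2 the log2 fold change was 0.62 (adjusted p = 0.0142). AT4G26010 had 108, 122 and 123 CPM in Col and 168, 297 and 157 CPM in ore15-2, also without overlap, but its adjusted p of 0.0532 (log2 fold change 0.81, SE 0.22) missed the threshold. It passed with DESeq2 (adjusted p = 0.0109), with organelle genes left out (0.0496), and without ore15-2 replicate 2 (0.0135, log2 fold change 0.46) or replicate 3 (0.00233, 0.94). It shares 1304 bp with AT4G26020 on the opposite strand, so its reads may not be its own if strand was not used in counting. AT5G64100, known in root hair growth at low temperature together with AT5G39580, had a log2 fold change of -0.19 (adjusted p = 0.537). AT5G39580 had 4.51, 5.36 and 5.40 CPM in Col and 5.17, 2.58 and 4.86 CPM in ore15-2, with a log2 fold change of -0.22 (adjusted p = 0.565). Thus 5 of the 7 had log2 fold changes of 0.81 or more, and the other 2 lay below 0.

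Other root hair genes moved in the same libraries. Of 7 wall-related and signalling genes used as root hair markers 6 were called higher in ore15-2 (85.7%, against 6.47% of all genes). All 7 had log2 fold changes above 0. Their summed level was 313 to 381 CPM in Col and 581, 994 and 646 CPM in ore15-2. The sum was highest in ore15-2 replicate 2, as was that of the root hair peroxidases (973, 1592 and 1011 CPM in ore15-2, 854 to 939 CPM in Col). Only in AtSFH1 among the markers and AT5G39580 among the peroxidases was ore15-2 replicate 2 not the highest of its group. The order of replicates 1 and 3 differed between genes. RSL4, the bHLH factor that drives root hair growth, had 13.2, 14.0 and 14.5 CPM in Col and 27.1, 24.5 and 35.5 CPM in ore15-2 (log2 fold change 1.08, SE 0.15, edgeR adjusted p = 0.00245). RSL4 lies in a stretch of chromosome 1 where 15 of its 20 nearest tested genes were higher, with a median log2 fold change of 0.93. RHD6, which acts ahead of RSL4 in root hair initiation, had a log2 fold change of 0.04 (adjusted p = 0.884). Non-hair and epidermal fate markers (0 of 3 called) summed to 37.2 to 42.8 CPM in Col and 34.8 to 42.8 CPM in ore15-2. The part of hair cell number, of RSL4 or of the raised stretch in the change of the peroxidases was not tested. None of the measured peroxidases lay in such a stretch: the median log2 fold change of the 20 nearest tested genes was between -0.22 and 0.18 for all of them. On chromosome 1 the measured member nearest to ORE15 was AT1G34510, 1543.1 kb away.

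**Figure D3:**
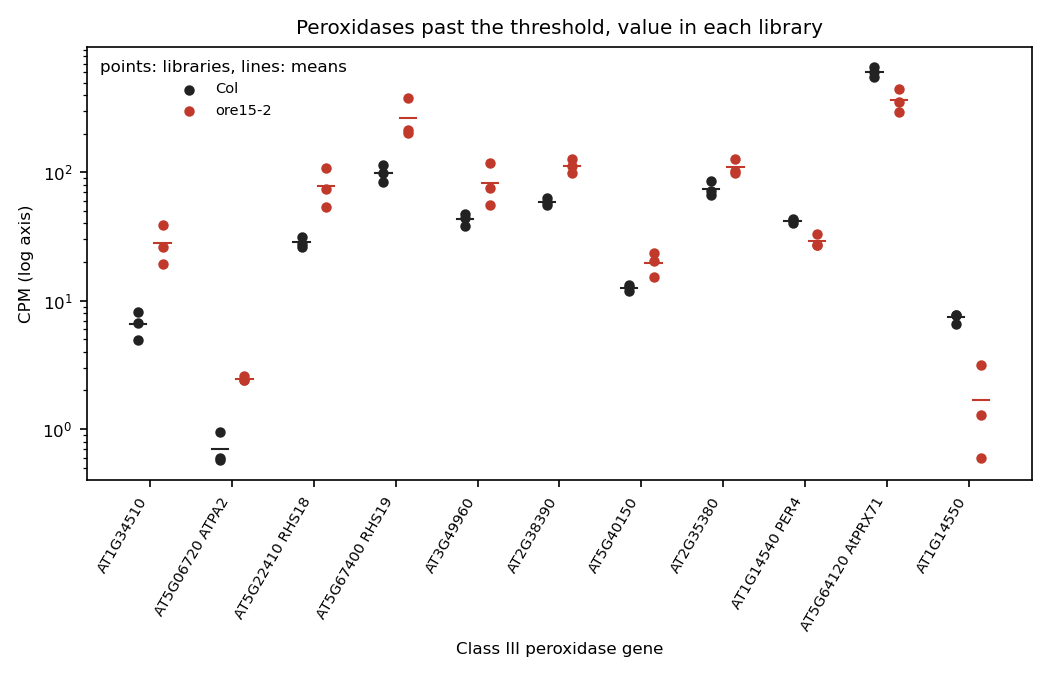
CPM (log axis) of the 11 called class III peroxidases in each of the 3 Col and 3 ore15-2 libraries, with group means as short lines. The genotypes do not overlap in any of the 11. AtPRX71 is the most abundant of them (607 CPM in Col) and PA2 the least (0.705 CPM).

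The root hair element is a promoter motif known from genes transcribed in root hair cells. It was searched on both strands in the window from 250 bases before to 50 bases after the annotated start of each gene (TAIR10.1, RefSeq), where 3 of the 48 measured members (6.25%) had a match, against 0.902% of 18406 protein-coding genes in the count table. Of the members that rose 2 of 8 had one, of those that fell 0 of 3, and of the remaining 37 one had a match (2.70%). The matches were in RHS18, in AT2G35380 and in AT3G01190, and the bases before the start of these 3 genes are printed below because they show where the motif lies in a called root hair peroxidase, in a called peroxidase outside the root hair list and in an uncalled one. Capitals mark the match, 92 bases before the start in RHS18 (chr5:7426060-7426309, plus strand), 108 bases in AT2G35380 (chr2:14892245-14892494, plus strand) and 246 bases in AT3G01190 (chr3:68666-68915, minus strand), where the motif reads on the opposite strand to the gene.
RHS18: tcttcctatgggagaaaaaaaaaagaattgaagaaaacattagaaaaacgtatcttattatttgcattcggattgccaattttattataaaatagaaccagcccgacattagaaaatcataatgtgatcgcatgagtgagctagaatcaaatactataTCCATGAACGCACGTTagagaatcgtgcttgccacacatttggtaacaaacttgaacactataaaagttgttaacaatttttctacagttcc
AT2G35380: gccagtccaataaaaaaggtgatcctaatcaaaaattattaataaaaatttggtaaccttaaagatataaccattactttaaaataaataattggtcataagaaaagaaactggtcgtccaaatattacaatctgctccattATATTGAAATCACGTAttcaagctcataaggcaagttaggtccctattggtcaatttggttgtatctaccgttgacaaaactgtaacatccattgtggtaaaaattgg
AT3G01190: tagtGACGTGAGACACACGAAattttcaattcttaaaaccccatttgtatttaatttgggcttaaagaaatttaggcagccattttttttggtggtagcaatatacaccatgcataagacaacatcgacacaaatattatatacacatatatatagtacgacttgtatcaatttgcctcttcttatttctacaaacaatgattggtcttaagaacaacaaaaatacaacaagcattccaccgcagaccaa
A match of letters is a description and not a binding site. The E-box CANNTG, the core read by bHLH factors, was in 31 of the 48 windows (64.6%) against 62.2% of all, and the G-box CACGTG, which is also an E-box, was in 1 (2.08%) against 8.81%.

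None of the 5 Casparian strip peroxidases was called. With 9.90% of all genes called, so short a list without a call does not stand apart. PER64 (AT5G42180), the peroxidase placed at the strip by the CASP scaffold, had 109, 126 and 142 CPM in Col and 116, 168 and 139 CPM in ore15-2. PRX72 (AT5G66390), which acts in lignification, had 179, 193 and 213 CPM in Col and 155, 229 and 214 CPM in ore15-2. AT4G11290 had 112, 124 and 134 CPM in Col and 88.8, 125 and 115 CPM in ore15-2. These 3 overlapped between the genotypes in CPM, though AT4G11290 did not on RPKM (127 to 150 in Col, 86.5 to 125 in ore15-2). AT1G44970 had 22.2, 28.3 and 30.3 CPM in Col and 19.4, 26.0 and 27.7 CPM in ore15-2. Over the list of 5, which also holds RCI3, the log2 fold changes ran from -0.17 to 0.31 with a median of 0.03. MYB36, the factor that switches on Casparian strip genes in the endodermis, had a log2 fold change of -0.27 (adjusted p = 0.365). Of 6 endodermal markers 1 rose (16.7%, against 6.47% of all genes), the scaffold gene CASP4 (log2 fold change 0.57, SE 0.13, edgeR adjusted p = 0.027). All 6 had log2 fold changes above 0, from 0.11 to 0.57 with a median of 0.35.

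Peroxidases of vascular lignin and of the oxidative burst held 2 of the 3 falls. On the vascular list 7 of 9 had a row. Of these 2 were lower (28.6%, against 3.43% of all genes) and none higher (median log2 fold change -0.23). On the burst list 3 of 4 had a row, and the same 2 genes were lower (66.7%), since AtPRX71 and PER4 stand on both lists. AtPRX71, which acts in lignification and limits growth when walls are damaged, had 608, 664 and 548 CPM in Col and 355, 446 and 296 CPM in ore15-2. Each ore15-2 library was below each Col library. The mean went from 607 ± 58.4 to 366 ± 75.6 CPM (SD, n = 3 each), a log2 fold change of -0.73 (SE 0.19, edgeR adjusted p = 0.0419). It did not pass with Col replicate 1, 2 or 3 or ore15-2 replicate 1 left out (adjusted p = 0.141, 0.176, 0.0957 and 0.172), though the value stayed between -0.90 and -0.63.

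PER4 (AT1G14540), linked to lignin and to the burst after pathogen patterns, had 40.3, 42.2 and 43.0 CPM in Col and 27.1, 27.0 and 33.3 CPM in ore15-2. It was 1.42-fold lower (log2 fold change -0.51, SE 0.11, edgeR adjusted p = 0.0215), with no overlap. Without Col replicate 1, 2 or 3 or ore15-2 replicate 1 the adjusted p was 0.068, 0.0987, 0.0889 and 0.0971. Its neighbour AT1G14550, on neither list, had 7.78, 6.63 and 7.79 CPM in Col and 1.29, 0.596 and 3.15 CPM in ore15-2, from 150, 146 and 163 counts against 8, 3 and 55. That was the deepest fall of the family, with a log2 fold change of -1.81 (SE 0.35, edgeR adjusted p = 0.0119). The 3 counts of ore15-2 replicate 2 lie at the floor of 3 counts, and the gene did not pass with Col replicate 1 (adjusted p = 0.0578) or ore15-2 replicate 1 (0.0716) left out. Without ore15-2 replicate 3 the log2 fold change was -2.93.

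The other vascular members did not pass. AT5G51890, known from tracheary elements, had 47.0, 53.1 and 53.6 CPM in Col and 42.0, 50.3 and 39.3 CPM in ore15-2. AT2G22420, known in lignified tissue, had 14.8, 15.3 and 15.4 CPM in Col and 13.6, 15.1 and 19.0 CPM in ore15-2. Both overlapped. AtPRX25 (AT2G41480), another lignin peroxidase, had 7.57, 11.1 and 8.17 CPM in Col and 6.62, 7.16 and 7.03 CPM in ore15-2, a log2 fold change of -0.37 (adjusted p = 0.242) without overlap. AT4G36430 was low in both, at 3.01 to 3.81 CPM in Col and 3.39 to 5.37 CPM in ore15-2. Xylem markers (0 of 6 called) summed to 255 to 285 CPM in Col and 211 to 262 CPM in ore15-2. All 6 had log2 fold changes below 0, from -0.55 to -0.047. Phloem markers summed to 54.6 to 70.5 CPM in Col and 30.0, 27.0 and 43.4 CPM in ore15-2, and 2 of 3 fell (66.7%, against 3.43% of all genes). The part of xylem or phloem cells in the lower values of AtPRX71 and PER4 was not tested.

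PRXCB, the remaining burst peroxidase, moved the other way in its values, from 333, 338 and 290.0 CPM in Col to 468, 679 and 347 CPM in ore15-2. The groups did not overlap, but the log2 fold change of 0.63 (SE 0.23) had an adjusted p of 0.121. Its near copy PRXCA (AT3G49110, 90.4% coding identity), the other burst peroxidase, had no row. PRXCB shares 6.72% of its 50-base stretches with other members, so some reads may have been counted for the wrong copy or for none.

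Neither of the 2 listed UPB1 targets was called, which with 9.90% of all genes called does not set them apart. AT5G17820 had 279, 291 and 277 CPM in Col and 359, 498 and 302 CPM in ore15-2, higher in each ore15-2 library, with a log2 fold change of 0.45 (SE 0.19, adjusted p = 0.165). AT4G11290, described above, had -0.17. UPB1 itself had 36.0, 29.7 and 31.9 CPM in Col and 21.3, 24.3 and 33.3 CPM in ore15-2 (log2 fold change -0.28, adjusted p = 0.301).

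Beyond these lists 4 more members rose. AT2G38390 had 55.9, 58.3 and 62.5 CPM in Col and 113, 127 and 98.2 CPM in ore15-2, with no overlap and the lowest adjusted p of the measured members. The mean went from 58.9 ± 3.34 to 113 ± 14.6 CPM (SD, n = 3 each), a log2 fold change of 0.93 (SE 0.12, edgeR adjusted p = 0.00149). PA2 (AT5G06720) was the least abundant member in Col at 0.570, 0.590 and 0.956 CPM and had 2.42, 2.58 and 2.40 CPM in ore15-2. These rest on 11, 13 and 20 counts in Col and 15, 13 and 42 in ore15-2. The log2 fold change was 1.78 (SE 0.27, edgeR adjusted p = 0.00395).

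AT2G35380, which carries the motif printed above, had 66.9, 71.3 and 85.7 CPM in Col and 103, 98.0 and 127 CPM in ore15-2. It rose 1.47-fold (log2 fold change 0.55, SE 0.14, edgeR adjusted p = 0.0343). With Col replicate 1, 2 or 3 or ore15-2 replicate 1 left out it did not pass (adjusted p = 0.183, 0.19, 0.0589 and 0.0903). AT5G40150 had 11.8, 12.7 and 13.1 CPM in Col and 20.5, 23.5 and 15.2 CPM in ore15-2 (log2 fold change 0.62, SE 0.17, edgeR adjusted p = 0.0494). It shares 288 bp with AT5G40153 on the opposite strand, and its call was lost without any 1 of 5 libraries: Col replicates 1 to 3 (adjusted p = 0.199, 0.194 and 0.149) and ore15-2 replicates 1 and 2 (0.162 and 0.0679). With all libraries kept it did not pass under RLE (0.0523), upper-quartile (0.0619) or library-size scaling (0.162). Its closest relative AT3G28200 (75.3% coding identity), which like it has a single coding exon, had 35.9, 34.6 and 34.1 CPM in Col and 53.6, 69.2 and 39.0 CPM in ore15-2. There the log2 fold change was 0.61 with an adjusted p of 0.0639.

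Neighbouring members did not always have like values. The family is scattered over all 5 chromosomes, with 8, 10, 6, 9 and 15 measured members on chromosomes 1 to 5, and 12 pairs of listed members lie with at most 5 genes between them. Both genes were measured in 7 pairs. AT2G38380 and AT2G38390 lie 897 bp apart with 90.6% coding identity, and stood at 300.2 and 61.6 RPKM in Col. They share 1.42% and 1.72% of their 50-base stretches with other members. AT2G38380 had 251, 297 and 313 CPM in Col and 283, 360.4 and 373 CPM in ore15-2, a log2 fold change of 0.24 (adjusted p = 0.364), beside the 0.93 of AT2G38390.

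AT4G08770 and AT4G08780, the most alike measured pair (93.8%), differed 33.1-fold in Col RPKM. AT4G08770 had 56.5, 58.2 and 60.1 CPM in Col and 62.7, 71.0 and 59.4 CPM in ore15-2 (log2 fold change 0.14). AT4G08780 had 1.97, 1.73 and 1.58 CPM in Col and 1.29, 0.596 and 0.801 CPM in ore15-2 (-0.99, adjusted p = 0.0674). They share 7.78% and 9.31% of their 50-base stretches with other members, so that some reads may have been counted for the wrong copy or for none.

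AT4G37520 (203, 195 and 168 CPM in Col, 155, 139 and 177 CPM in ore15-2) and AT4G37530 (55.6, 54.9 and 55.9 CPM against 67.5, 71.2 and 62.7 CPM) had log2 fold changes of -0.26 and 0.27, and neither passed. They share 6.08% and 6.00% of their 50-base stretches with other members, so the same limit on read counting holds for them. AT5G06730, next to PA2 with 80.8% coding identity, had 2.28, 2.95 and 3.20 CPM in Col and 3.23, 3.58 and 4.12 CPM in ore15-2 (0.41, adjusted p = 0.246). In the run of AT5G64100, AT5G64110 and AtPRX71 on chromosome 5, all 3 values were below 0 (-0.19, -0.60 and -0.73). AT5G64110 had 10.1, 9.67 and 11.2 CPM in Col and 4.85, 8.95 and 6.81 CPM in ore15-2, with no overlap but an adjusted p of 0.0936. AT1G14540 (PER4) and AT1G14550, with 72.3% identity, were the pair in which both members fell. The differences within pairs were not tested.

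**Figure D4:**
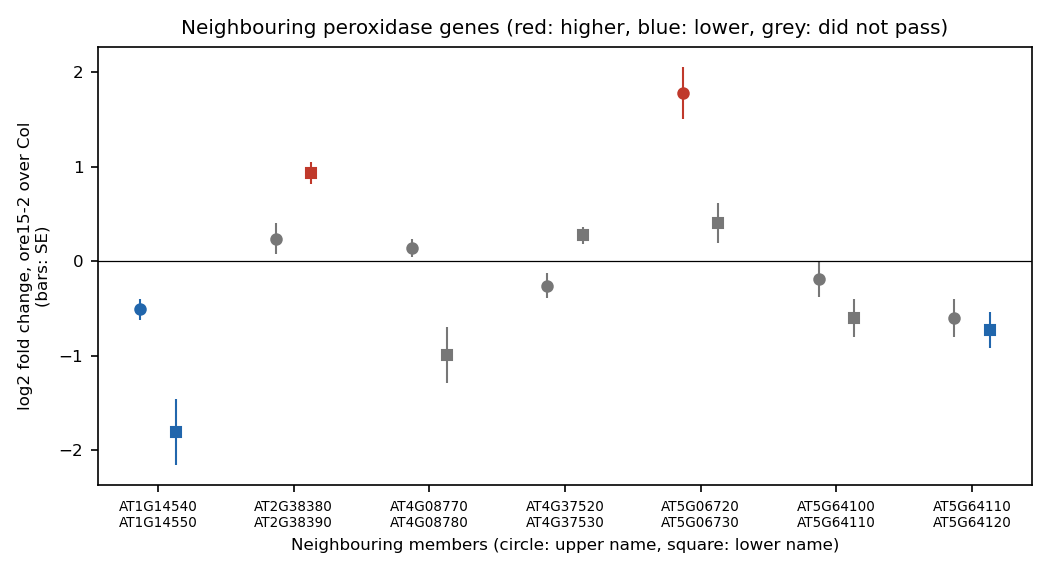
Log2 fold change of ore15-2 over Col, with standard errors, for the 7 pairs of neighbouring class III peroxidases in which both members were measured. Both members were below 0 in 3 pairs, both were above 0 in 2, and the signs differed in the AT4G08770 and AT4G37520 pairs.

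The remaining measured members did not pass the test either. AT1G49570 was low in both genotypes and missed the threshold, with 1.97, 1.73 and 2.77 CPM in Col and 1.13, 0.199 and 0.915 CPM in ore15-2 (log2 fold change -1.38, SE 0.38, adjusted p = 0.0533). These rest on 38, 38 and 58 counts in Col and 7, 1 and 16 in ore15-2, so replicate 2 lies under the floor of 3 counts and the fitted value depends on the prior count. AT1G49570 passed under upper-quartile scaling (adjusted p = 0.0491), DESeq2 (0.0278), organelle genes left out (0.0499) and without ore15-2 replicate 3 (0.0355). AT2G39040 had 40.3, 43.0 and 39.7 CPM in Col and 56.5, 85.7 and 45.9 CPM in ore15-2 (0.59, adjusted p = 0.091). AT2G18980 had 175, 165 and 163 CPM in Col and 240.2, 323 and 174 CPM in ore15-2 (0.55, adjusted p = 0.122). AT1G68850 differed from most in being highest in ore15-2 replicate 3, with 47.8, 47.2 and 55.6 CPM in Col and 67.8, 49.1 and 97.9 CPM in ore15-2 (0.53, adjusted p = 0.142). AT3G21770, AT5G14130, AT5G15180, AT1G71695, AT2G34060 and AT2G43480 had log2 fold changes from -0.0030 to 0.24.

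The 12 listed members without a row were AT1G05240, AT1G05250, AT1G24110, AT2G18140, AT2G18150, AT2G24800, AT3G03670, PRXCA, AT4G17690, AT4G25980, AT5G05340 and AT5G19890, and no level is given for them. AT1G05240 and AT1G05250 have identical coding sequences (100%), and 5 of the 12 share at least one 50-base stretch with another member, as do 7 of the 48 measured ones. In gene structure 41 of the 60 have 4 coding exons, 12 have 3, 2 have 2, 4 have 1 and 1 has 5. The coding length ran from 933 to 1116 bases with a median of 990.

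Among genes that supply or compete for the substrates of the peroxidases, 12.5% to 22.2% were called by list. The shares were 22.9% of the members and 9.90% of all genes. Of 8 measured NADPH oxidases, which make superoxide outside the cell, 1 rose, AT4G25090 (18.8 to 18.9 CPM in Col, 28.1 to 29.8 CPM in ore15-2, log2 fold change 0.61). Of 7 superoxide dismutases, which turn superoxide into hydrogen peroxide, 1 fell, the copper/zinc enzyme CSD1, from 368, 351 and 353 CPM to 223, 143 and 199.6 CPM (-0.92, SE 0.17, edgeR adjusted p = 0.0105). CSD1 shares 211 bp with AT1G08840 on the opposite strand. Of 9 catalases and class I peroxidases, which remove hydrogen peroxide inside the cell, the catalases CAT1 (-0.64) and CAT3 (-0.66) fell and none rose.

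Of 15 genes on the list of monolignol enzymes, drawn up for the making of lignin precursors, 4CL3 (1.04) and CAD5 (0.42) rose and none fell. In all, 12 lay above 0 and 3 below. 4CL1 (-0.149) and 4CL2 (-0.154) were among those below and did not pass. Which phenolic pathway 4CL3 serves in these tips was not tested. 4CL3 rose from 22.6, 20.9 and 19.4 CPM to 45.1, 53.1 and 33.2 CPM (edgeR adjusted p = 0.00453). Of 15 laccases, the copper enzymes that oxidise lignin precursors with oxygen instead of peroxide, LAC5 (1.15) and LAC13 (1.10) rose and LAC2 (-0.97) fell. LAC13 had 26.3, 29.5 and 32.6 CPM in Col and 58.2, 55.7 and 74.0 CPM in ore15-2, so that ore15-2 replicate 3 was highest here, unlike in the root hair peroxidases. The shares of these 5 lists called were 12.5%, 14.3%, 22.2%, 13.3% and 20%, against 9.90% of all genes.

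On the deposited RPKM the balance of directions was different. With limma on log2(RPKM + 1), 10 of the 48 members passed (20.8%, against 6.19% of 17935 genes), 5 higher and 5 lower, and 8 of the 11 edgeR calls were among them. These RPKM values are not scaled by TMM, and the median log2 change of all genes on that scale was -0.19.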

How the data were processed

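Poly(A) RNA of 3 Col and 3 ore15-2 root tip samples was sequenced from stranded Illumina libraries, per the labels' protocols. The authors deposited whole-number read counts per gene and RPKM values per gene. Reads were handled with cutadapt, TopHat2, HTSeq and FastQC on genome build TAIR10, per the submitters' processing notes. Which annotation was counted, and whether by strand, is not given in the sources used here. In all 18340 shared genes the deposited RPKM and counts implied 1 gene length within a relative tolerance of 0.001, so RPKM restates the counts.

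Members were found by gene ID. Counts of all genes were fitted with edgeR 4.0.16 in R 4.3.3 (quasi-likelihood F-test, TMM, filterByExpr, genotype only), with Benjamini-Hochberg adjustment over the 18726 genes tested. Every adjusted p in the text is from edgeR unless another tool is named. Standard errors are the size of the log2 fold change over the square root of the F statistic. Per-library changes use log2 CPM with a prior count of 2. RPKM was tested with limma 3.58.1 (pseudocount 1, mean RPKM of at least 1), which understates changes of low genes. A floor of 3 counts equals 0.136 to 0.596 CPM and covers counting error only. No 2 libraries agreed within sampling noise (lowest chi-square per gene 2.14, between Col replicates 2 and 3). Between ore15-2 replicates 1 and 2 the value was 7.00. From ore15-2 replicate 3 it was 29.2 to replicate 1 and 49.1 to replicate 2, but 20.1 to 23.0 to the Col libraries. By this measure, which also depends on depth, ore15-2 replicate 3 was nearer to Col than to its own group.

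The members, role lists and marker lists were chosen with earlier results of these data known. Named are the 10 members highest in Col, the members past the threshold, those on role lists, neighbouring pairs, up to 3 called genes per pathway list and 4 regulators. AT2G39040, AT2G18980, AT1G68850, AT1G49570 and AT3G28200 were named after their values were seen. Positions, sequences, exons and identities (Biopython 1.88, global alignment of coding sequences) are from TAIR10.1 RefSeq, and protein sequences were not used here. Alternatives were RLE, upper-quartile and library-size scaling, DESeq2 1.42.0, other filters, a replicate block, organelle genes left out, a fold minimum of 1.5 and each library left out. On data simulated for ore15-2 against Col with 18728 genes, edgeR recovered 99 of 100 genes changed 2-fold and 100 of 100 changed 4-fold, with 4 false calls. The simulated libraries of a genotype differed only in depth and random spread, and genes with low counts were not among those changed. Differences like those among the ore15-2 libraries were left out, so the simulation gives no rate of missed or false calls for these data.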

Additional observations from a re-analysis of the deposited data

How the results depend on the processing

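With 3 libraries per genotype and 2 ore15-2 libraries that are shallower and richer in mitochondrial RNA, the counts of called members move with the samples used. Leaving out 1 library at a time gave 4 to 21 called members, 4 to 15 higher, 0 to 6 lower, 634 to 6612 called genes in all, 3 to 25 in the pathway lists, a member median of 0.11 to 0.28 and 3 to 27 members on RPKM. Leaving out ore15-2 replicates 1 and 2 leaves 1 ore15-2 library, assumed to vary like Col, so its counts rest on the Col spread and say nothing on stability: 20 members (13 higher, 7 lower), 3109 genes in all and 20 in the pathway lists. Library-size scaling gave 5 higher members, 983 genes in all and a member median of -0.060. DESeq2 called 15 pathway genes against 9 in edgeR. Library-size scaling and leaving out that pair of libraries were chosen after the data were seen. Of the 11 calls, 7 passed under all 8 alternatives that kept the 6 libraries, and none of the 11 changed sign in any fit. AT5G40150 was lost under RLE, upper-quartile and library-size scaling and the replicate block, and AT2G35380, PER4 and AT3G49960 under library-size scaling. Library-size scaling also called AT5G64100 and AT5G51890, which the main fit did not.

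The replicate numbers are shared by both genotypes, but same-numbered libraries did not deviate together (correlations of 0.06, 0.08 and -0.20). Not every library correlated best with its own number. With so few libraries these values cannot decide whether a shared number means a shared batch, and the labels do not say. With a replicate block 14 members passed, 10 of the 11 calls among them, and 1641 genes in all. The members called only with the block were AT4G26010, AT2G39040, AT3G28200 and AT1G49570.

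Of 720 member values under the alternatives 36 changed sign, in 15 members, none of them called. Without ore15-2 replicates 1 and 2, with 1 ore15-2 library left, these were AT4G21960 (-0.034), AT2G37130 (-0.27), AT4G30170 (-0.10), AT1G44970 (0.050) and AT2G34060 (-0.13). With library-size scaling they were AT4G21960 (-0.028), AT3G32980 (-0.21), AT2G37130 (-0.11), AT4G30170 (-0.18), AT3G01190 (-0.0072), AT5G66390 (-0.21), AT5G42180 (-0.089), AT3G21770 (-0.083), AT4G08770 (-0.11), AT2G22420 (-0.13), AT1G71695 (-0.073), AT2G43480 (-0.047) and AT2G34060 (-0.19). With upper-quartile scaling they were AT3G32980 (-0.0071), AT5G66390 (-0.021) and AT2G34060 (-0.010). Leaving out 1 library gave ranges that cross 0 in AT3G32980 (-0.10 to 0.19), AT2G37130 (-0.12 to 0.33), AT4G30170 (-0.029 to 0.15), AT5G66390 (-0.075 to 0.18), AT5G15180 (-0.090 to 0.057), AT1G44970 (-0.29 to 0.00080), AT2G22420 (-0.12 to 0.19) and AT2G34060 (-0.060 to 0.15). The cause of these moves was not tested.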

Other observations

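The reference gives the name "peroxidase superfamily protein" to 5 further genes with a row that are not among the 60 listed IDs. AT1G30870 (TAIR10.1 chromosome 1, 10991478 to 10993083) was the one that changed most: it had 98.7, 109 and 109 CPM in Col and 315, 531 and 295 CPM in ore15-2, with no overlap. That is a 3.60-fold rise (log2 fold change 1.85, SE 0.22, edgeR adjusted p = 0.00121), and ore15-2 replicate 2 was again the highest library. AT1G30870 lies close to ORE15, and 13 of its 20 nearest tested genes were higher in ore15-2, with a median log2 fold change of 0.87, which no measured member of the list had around it. AT5G24070 fell, from 10.2, 9.85 and 8.41 CPM in Col to 5.98, 6.56 and 6.46 CPM in ore15-2 (log2 fold change -0.58, SE 0.15, edgeR adjusted p = 0.0468). AT4G33420 (0.21) and AT4G16270 (0.28) did not pass. The fifth gene, ALPHA-DOX1 (AT3G01420), known as an alpha-dioxygenase that oxidises fatty acids rather than as a class III peroxidase, did not pass either (0.30, adjusted p = 0.327). These genes were looked up after the values of the members were seen.

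Leaf markers differed between the libraries. Summed over 6 of them the level was 93.4 to 112 CPM in Col and 164, 239 and 80.7 CPM in ore15-2 replicates 1 to 3. Of the 6, 3 rose (50%, against 6.47% of all genes), namely RBCS3B, RBCS2B and AT1G29920. AT1G29920 lies in a raised stretch, where 16 of its 20 nearest tested genes were higher, with a median log2 fold change of 0.97. Around RBCS3B and RBCS2B that median was -0.011. The part of the raised stretch in the leaf markers was not tested.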
